A study of Mus musculus with 4 samples.

Results

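The tubular injury markers described here are 6 genes, Lcn2, Havcr1, Spp1, Clu, Cd44 and Sox9, read on Affymetrix arrays of total RNA from mouse glomeruli. They were selected by name, through probe sets (groups of short probes that report a transcript together) annotated with that single gene symbol. The members and the gene lists used below were chosen with earlier results of these data known. Of the 6 genes 5 had such a probe set, 14 probe sets in all of 45101 on the array and 5 genes of 18193 named. Spp1 (osteopontin) had none in the annotation used and was not analysed here. The RNA came from male mice with the kidney on one side removed, on 1 array for each of 4 groups. KO mice lacked guanylyl cyclase A (GC-A, encoded by Npr1), which binds the atrial and B-type natriuretic peptides, in the whole body, and WT mice were wild type. The ALDO treatment was aldosterone, the mineralocorticoid hormone, given continuously under the skin with a 6% salt diet for 3 weeks, and the control treatment was 2% ethanol given the same way with a normal diet. The groups were KO ALDO, WT ALDO, KO control and WT control, and the sources used here do not give strain, age, the number of mice behind an array or the way glomeruli were isolated. There was no replicate of any group, so each difference compares single arrays and has no test, and the number of arrays limits its precision.

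Tubular epithelial cells of a damaged kidney switch off part of their transport program and switch on a set of secreted and surface proteins used as injury markers. Lcn2 encodes lipocalin 2 (NGAL), an iron-siderophore binding protein released by injured distal tubules and by neutrophils, and Havcr1 encodes kidney injury molecule 1 (KIM-1), a phosphatidylserine receptor that injured proximal tubule cells place on their surface. Clu encodes clusterin, a secreted chaperone, and Cd44 a hyaluronan receptor that osteopontin also binds, found on leukocytes, injured tubule cells and activated parietal epithelial cells of the glomerulus. Sox9 encodes a transcription factor switched on in proximal tubule cells during repair.

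The deposited values are probe set intensities, scaled to a mean of 500.003 on every array once the top and bottom 2% are set aside. The array medians were 103 in KO ALDO, 91.9 in WT ALDO, 97.7 in KO control and 89.5 in WT control, and a value under its array's median is called dim here. The probe set of Npr1, the deleted gene, was 23.4 in KO ALDO, 60.5 in WT ALDO, 108 in KO control and 92.6 in WT control, and as the sources used here do not place it relative to the deletion it does not check the genotype labels. All 8 podocyte markers measured were above the array median on each of the 4 arrays, and so were all 13 proximal tubule, all 9 thick limb and distal tubule and all 8 collecting duct markers, so the preparations held tubular as well as glomerular RNA. The tubular signal was strong: the proximal tubule markers summed to 251499 to 294967 across the arrays, and the podocyte markers to 26387 to 31322. The proximal tubule gene Kap was the brightest probe set in KO ALDO (45032), KO control (48508) and WT control (49489). Sums over different genes do not measure the share of RNA from each cell type. The ratio of 3' to 5' signal of beta-actin, a measure of RNA integrity, was 1.61 in KO ALDO, 1.87 in WT ALDO, 1.67 in KO control and 1.86 in WT control, and its part in the genotype differences was not tested. In such bulk RNA, more cells of a type and more RNA per cell cannot be told apart.

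The promoters of Lcn2, Havcr1 and Cd44, the 3 markers with the largest genotype differences below, are shown as the 250 bases before a listed transcription start, with matches to 6 searched motifs in capitals. They are from RefSeq on the mouse build GRCm38.p6, where 4 of the 6 genes matched, and Havcr1 is given at the first of its 3 listed starts. The Lcn2 window is chr2:32387740-32387989 on the minus strand, the Havcr1 window chr11:46739973-46740222 on the plus strand and the Cd44 window chr2:102901666-102901915 on the minus strand. The annotated Havcr1 gene runs from 46739822 to 46779578, so its window lies inside the gene. The annotated Cd44 gene ends at 102901669, so its window overlaps the gene at that edge.
Lcn2: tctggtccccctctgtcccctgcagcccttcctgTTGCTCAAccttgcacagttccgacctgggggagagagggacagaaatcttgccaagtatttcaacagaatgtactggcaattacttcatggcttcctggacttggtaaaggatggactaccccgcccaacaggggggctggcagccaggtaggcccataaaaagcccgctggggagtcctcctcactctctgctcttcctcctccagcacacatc
Havcr1: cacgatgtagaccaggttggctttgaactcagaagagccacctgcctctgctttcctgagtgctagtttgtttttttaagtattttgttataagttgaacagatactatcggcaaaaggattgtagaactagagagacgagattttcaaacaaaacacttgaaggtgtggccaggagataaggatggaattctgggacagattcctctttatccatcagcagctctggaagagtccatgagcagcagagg
Cd44: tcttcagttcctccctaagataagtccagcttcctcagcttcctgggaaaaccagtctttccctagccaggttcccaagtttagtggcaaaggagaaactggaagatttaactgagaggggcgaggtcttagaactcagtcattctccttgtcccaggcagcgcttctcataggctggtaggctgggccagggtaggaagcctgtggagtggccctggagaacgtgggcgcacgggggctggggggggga
Searched on both strands were the STAT motif TTCNNNGAA, the C/EBP motif TTGCNNAA and the NF-kB consensus. Searched likewise were TGANTCA for the dimer known as AP-1 and AACAAT for the family of SOX proteins. The last was TATAAA, the core promoter element of that name. A single match was found in the windows shown, a C/EBP match from 216 to 209 bases before the Lcn2 start, a motif present in 9.56% of the 32851 promoter windows. The window of the second Havcr1 start, not shown, held a C/EBP match on the opposite strand, from 46 to 39 bases before that start. The other motifs occur in 7.02% (STAT), 7.25% (NF-kB), 6.75% (AP-1), 12.4% (TATA) and 9.42% (SOX) of these windows. A match or its absence in so short a window says nothing of whether a factor binds there. The windows held 56.4% G and C in Lcn2, 43.2% in Havcr1 and 56.4% in Cd44, against a median of 52.4% over all windows.

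Lcn2 was read by the single probe set 1427747_a_at. Its intensity was 1949.7 in KO ALDO, 218 in WT ALDO, 1497 in KO control and 76.5 in WT control. Both KO arrays were therefore above both WT arrays, and the WT control value was dim. On the log2(intensity + 16) scale used throughout, in which 1 is a 2-fold difference, KO ALDO exceeded WT ALDO by 3.07 and KO control exceeded WT control by 4.03, ranks 4 and 1 from the top among 18193 genes. As the WT control value was dim, the size of the difference from it is uncertain: it was 4.27 with a pseudocount of 1 and 3.47 with one of 64 in place of 16. WT ALDO exceeded WT control by 1.34, and KO ALDO exceeded KO control by 0.38. The ALDO difference was thus smaller in KO than in WT on the log2 scale, by -0.96, but larger in intensity, with a gain of 453 in KO and of 142 in WT, so which genotype shows more change depends on the scale.

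Neutrophils store lipocalin 2 and macrophages can make it, so markers of both are set beside it. The 12 neutrophil markers measured summed to an intensity of 1598 in KO ALDO, 367 in WT ALDO, 1405 in KO control and 1138 in WT control. Of these 12, 8 were dim in KO ALDO, 12 in WT ALDO, 8 in KO control and 9 in WT control, none was at 0, and S100a8 and S100a9, shared with monocytes, made up most of the sum on every array but WT ALDO, where they were 34.5 and 4.50. Of the 12, 8 were higher by 2-fold or more and 2 lower in KO ALDO than in WT ALDO (all genes 4.72% higher and 2.34% lower), with a median of 1.07, S100a8 at 3.44 and S100a9 at 4.52. In KO control against WT control 1 of 12 was higher, the dim granule gene Mpo (1.14), and none lower (all genes 4.44% and 2.46%), with a median of 0.20, S100a8 at 0.26 and S100a9 at 0.53. The 15 macrophage and monocyte markers summed to 19221 in KO ALDO, 9380 in WT ALDO, 17017 in KO control and 8857 in WT control, with both KO arrays above both WT arrays as in Lcn2. Of these 15, 8 were higher by 2-fold or more and none lower in KO ALDO than in WT ALDO, with a median of 1.04. In KO control against WT control 7 of 15 were higher and none lower, with a median of 0.99. The shares of all genes are those just given. The part of neutrophils and of macrophages in the Lcn2 differences was not tested.

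**Figure D1:**
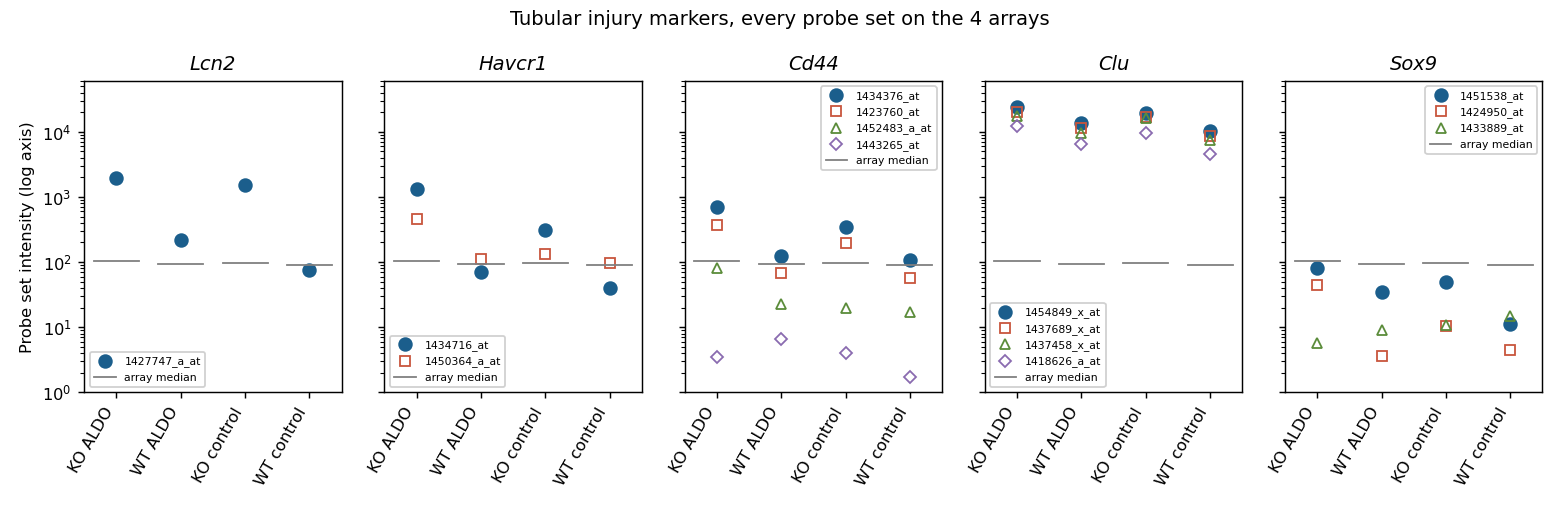
Intensity of all 14 probe sets of the 5 measured markers on the 4 arrays (log axis; filled circles mark the brightest probe set of each gene, open symbols the others, grey bars the median of each array). Lcn2 lies at 1949.7 and 1497 on the KO arrays and at 218 and 76.5 on the WT arrays, Clu is bright on every array, and Sox9 lies under the array median throughout.

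Havcr1 had the largest difference of the 5 markers under ALDO, and KO ALDO stood apart from the other 3 arrays. Its brighter probe set, 1434716_at, had 1328 in KO ALDO, 70.1 in WT ALDO, 308 in KO control and 39.3 in WT control. Both WT values were dim, so the size of a ratio to them is uncertain. KO ALDO exceeded WT ALDO by 3.96, rank 2 of 18193 genes, and KO control exceeded WT control by 2.55, rank 7. The rank holds among all genes: the mean of Havcr1 over the 4 arrays is under the level of the brighter 50% of genes (an intensity of about 247), so a count restricted to those genes leaves it out.

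The other probe set, 1450364_a_at, had 451 in KO ALDO, 111 in WT ALDO, 132 in KO control and 98.0 in WT control. It placed KO ALDO highest too, by 1.88 over WT ALDO, but KO control exceeded WT control there by only 0.38, so the probe sets disagree on whether the genotypes differed 2-fold without aldosterone. Both agree on the ALDO difference within KO mice, which was 2.05 in 1434716_at and 1.66 in 1450364_a_at, and on its small size within WT mice, 0.64 and 0.16. The difference of these ALDO differences, KO minus WT, was 1.42 in the first and 1.50 in the second. By the brightest probe sets Havcr1 was the only one of the 5 markers past 2-fold in that quantity, and the dimmer probe sets 1424950_at of Sox9 (1.26) and 1452483_a_at of Cd44 (1.21) were past it too. By brightest probe sets 5.87% of all genes and 0.594% of the brighter 50% were that much higher.

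The proximal tubule, where Havcr1 is made after injury, had slightly lower marker signal in KO. The 13 proximal tubule markers summed to 251499 in KO ALDO, 277415 in WT ALDO, 273421 in KO control and 294967 in WT control, and 10 of 13 were below 0 in the KO against WT difference under either treatment, with medians of -0.24 under ALDO and -0.21 under control treatment and none past 2-fold. The part of the proximal tubule share in the Havcr1 differences was not tested.

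Cd44 had 4 probe sets, of which the 2 brightest gave closely similar differences. Probe set 1434376_at had 693 in KO ALDO, 123 in WT ALDO, 343 in KO control and 108 in WT control. Probe set 1423760_at had 368 in KO ALDO, 69.1 in WT ALDO, 199.5 in KO control and 56.7 in WT control. Both WT values of 1423760_at were dim, so the size of a ratio to them is uncertain. KO exceeded WT under ALDO by 2.35 and 2.17 in these probe sets, and under control treatment by 1.54 and 1.57, while the WT arrays lay close together, with WT ALDO over WT control by 0.17 and 0.23. KO ALDO exceeded KO control by 0.98 and 0.83, just under 2-fold.

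The 2 remaining Cd44 probe sets were dim on all 4 arrays. Probe set 1452483_a_at had 80.3 in KO ALDO, 22.6 in WT ALDO, 19.7 in KO control and 17.0 in WT control, so only KO ALDO stood out. Probe set 1443265_at lay between 1.73 and 6.54 and gives no usable direction. As leukocytes carry CD44, the 15 macrophage and monocyte markers above are again relevant. Their median KO against WT difference was 1.04 under ALDO and 0.99 under control treatment. Parietal epithelial cells can also carry CD44 when activated. Their markers had a median of 0.59 under ALDO and 0.44 under control treatment over 6 genes. The part of either cell type in the Cd44 difference was not tested.

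Clu was bright on every array and the differences were small but alike in its 4 probe sets. The brightest, 1454849_x_at, had 24169 in KO ALDO, 13782 in WT ALDO, 19287 in KO control and 10117 in WT control. Both KO arrays exceeded both WT arrays, by 0.81 under ALDO and 0.93 under control treatment. Across the 4 probe sets the KO against WT difference ran between 0.81 and 0.91 under ALDO and between 0.93 and 1.10 under control treatment, so the threshold of 2-fold falls within the range of the probe sets. WT ALDO exceeded WT control by 0.36 to 0.49, and KO ALDO exceeded KO control by 0.11 to 0.35. The 3 brightest carry the suffix of probe sets with probes that may also match other transcripts. The fourth, 1418626_a_at, does not carry it and differed by 0.91 under ALDO and 1.05 under control treatment. Probe sets of 1 gene on the same arrays are not independent readings.

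Sox9 was dim in all 3 of its probe sets on all 4 arrays, and they disagree. The brightest, 1451538_at, had 80.5 in KO ALDO, 34.1 in WT ALDO, 49.6 in KO control and 11.1 in WT control. Probe set 1424950_at had 44.6 in KO ALDO, 3.62 in WT ALDO, 10.3 in KO control and 4.44 in WT control. Probe set 1433889_at ran the other way, with 5.75 in KO ALDO, 9.05 in WT ALDO, 10.7 in KO control and 14.9 in WT control. KO exceeded WT by 0.95 under ALDO and 1.28 under control treatment in the first of these, and by 1.63 and 0.36 in the second, while the differences in the third were -0.20 and -0.21. At this signal a difference in Sox9 was not measurable with any certainty.

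Counted by the brightest probe set of each gene, 3 of the 5 markers (Lcn2, Havcr1 and Cd44) were higher by 2-fold or more in KO ALDO than in WT ALDO, where 4.72% of all genes and 1.26% of the brighter 50% were. In KO control against WT control 4 of 5 were (those 3 and the dim Sox9), against 4.44% of all genes and 0.967% of the brighter 50%. No marker was 2-fold lower in either, where 2.34% and 2.46% of all genes were. The median difference of the 5 markers was 2.35 under ALDO and 1.54 under control treatment, beside 0.04 and 0.02 for all genes. As the markers were chosen with earlier results of these data known, their counts do not test them against these shares. Lcn2 and Clu were the 2 markers within the brighter 50% of genes, 4 reached that level on at least 1 array and Sox9 on none. Lcn2, Havcr1 and Cd44 reached it on the KO arrays only, so the place of Lcn2 within the brighter 50% rests on those arrays. The shares of the brighter 50% set beside marker counts are thus from genes that leave out Havcr1, Cd44 and Sox9.

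**Figure D2:**
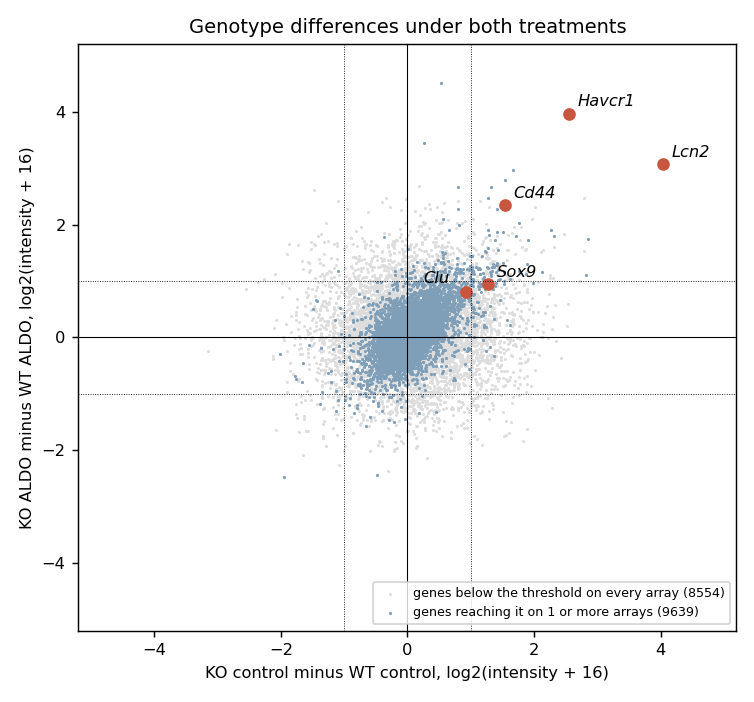
Each point is a gene (brightest probe set), placed by its KO minus WT difference of log2(intensity + 16) under control treatment (horizontal) and under ALDO (vertical); dotted lines mark 2-fold, and the threshold in the legend is the intensity of about 247. Lcn2 (4.03 and 3.07) and Havcr1 (2.55 and 3.96) lie at the upper right edge, Cd44 inside it (1.54 and 2.35), and Clu and Sox9 near the 2-fold lines.

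By the brightest probe sets the differences between ALDO and control treatment were smaller than those between genotypes in each of the 5 markers. In the second Havcr1 probe set, however, KO ALDO exceeded KO control (1.66) by more than KO control exceeded WT control (0.38). The same held in the dim probe sets 1452483_a_at of Cd44 (1.43 and 0.11) and 1424950_at of Sox9 (1.20 and 0.36). In KO ALDO against KO control only Havcr1 was past 2-fold (2.05, rank 21 of 18193), where 3.83% of all genes and 0.572% of the brighter 50% were higher. In WT ALDO against WT control only Lcn2 was (1.34), where 3.4% of all genes and 0.33% of the brighter 50% were higher. All 5 markers were nevertheless above 0 in both comparisons, with medians of 0.56 in KO and 0.64 in WT, beside 0.03 and 0.01 for all genes. The spiked-in control RNA, added in equal amount, was lower on the ALDO arrays, by a median of -0.12 in KO and -0.29 in WT over 16 probe sets, and its part in these differences was not tested.

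The extremes of the design, KO ALDO and WT control, differed by 2-fold or more in the brightest probe set of all 5 markers, where 6.68% of all genes and 3% of the brighter 50% were that much higher. Havcr1 (4.60) and Lcn2 (4.41) were ranks 1 and 2 of 18193 genes in that comparison, and Cd44 (2.52), Sox9 (1.83) and Clu (1.26) followed. The Sox9 value is not firm: it was 0.94 with a pseudocount of 64 and 0.96 as the mean of its probe sets, which leaves 4 of 5 markers past 2-fold, and its probe set 1433889_at was at -0.51. The brightest probe set of each of the 5 markers had the same order of arrays, KO ALDO above KO control, above WT ALDO, above WT control, as did 10 of all 14 probe sets. That order was found in 9.98% of all genes and 11.5% of the brighter 50%. These comparisons share arrays and are not separate observations.

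**Figure D3:**
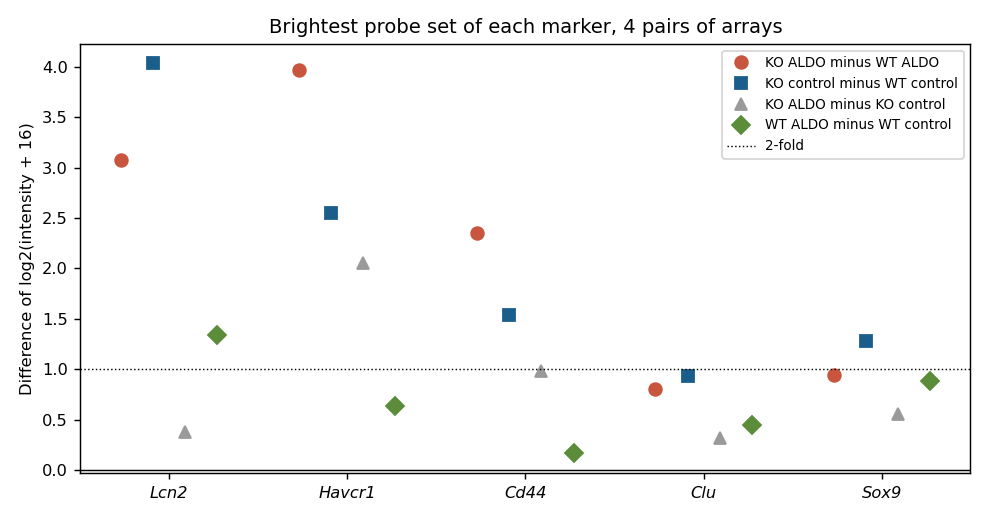
Difference of log2(intensity + 16) for the brightest probe set of each marker in 4 pairs of arrays (1 array per group, so there are no error bars; the dotted line marks 2-fold). The genotype differences (circles under ALDO, squares under control treatment) exceed the ALDO differences (triangles in KO, diamonds in WT) in each of the 5 markers, and the ALDO difference of Havcr1 in KO reaches 2.05.

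Genes of the brighter 50% with the most similar profile over the 4 arrays were found by the Euclidean distance between centred log2 values, which is smaller for markers of narrow range. For Lcn2 these were the complement gene C1qb (1.52), the protease inhibitor Spink8 (1.53), the fibrinogen chain Fgg (1.78), the tight junction gene Cldn4 (1.80) and the leukotriene C4 synthase Ltc4s (1.89), all of narrower range than Lcn2. For Havcr1 they were Fgg (1.26), Lcn2 (1.32), the cytokine signalling inhibitor Socs3 (1.56), C1qb (1.67) and Spink8 (1.68). At 1.32 Havcr1 was nearer to Lcn2 than the genes named for Lcn2. It was not a candidate there, as it lies outside the brighter 50%. Cd44 lay closer to its neighbours, Socs3 (0.30), Fgg (0.34), C1qa (0.35), Ltc4s (0.41) and Pamr1 (0.42). Socs3 had 1221 in KO ALDO, 180 in WT ALDO, 558 in KO control and 215 in WT control, the shape of the Cd44 values at a higher intensity. Clu was matched most closely by St14, which encodes the epithelial protease matriptase (0.04), and by Cnp (0.09), the claudin gene Cldn3 (0.09), D630004K10Rik (0.09) and Mboat2 (0.10). The dim Sox9 was nearest to Armcx4 (0.14), the myeloid gene Ly86 (0.19), Olfm1 (0.20), Adgrg3 (0.20) and the collagen gene Col3a1 (0.21). With 4 arrays many genes share a profile, and these distances carry no test.

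Most receptors and binding partners of the marker proteins had differences under 2-fold. Of 23 listed genes 21 were measured, of which 1 was higher and 1 lower by 2-fold or more in KO ALDO than in WT ALDO, and 2 were higher and 2 lower in KO control than in WT control. Over all genes 4.72% were higher and 2.34% lower in the first comparison and 4.44% and 2.46% in the second, so that counts of 1 and 2 in 21 lie near the background. Their medians were 0.15 under both treatments, beside 0.04 and 0.02 for all genes. Slc22a17, a lipocalin 2 receptor, had 404 in KO ALDO, 427 in WT ALDO, 353 in KO control and 459 in WT control. Lrp2, the endocytic receptor megalin that takes up filtered lipocalin 2, had 10903 in KO ALDO, 14479 in WT ALDO, 11206 in KO control and 15141 in WT control, lower in KO by -0.41 and -0.43. Mmp9, the gelatinase that lipocalin 2 binds, was 17.8 in KO ALDO, 77.4 in WT ALDO, 99.9 in KO control and 66.3 in WT control, dim on 3 of the 4 arrays.

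Among the integrins that bind osteopontin, Itgav (0.51 under ALDO and 0.32 under control treatment), Itgb1 (0.44 and 0.27), Itgb5 (0.41 and 0.23), Itga4 (0.53 and 0.17) and Itga9 (0.37 and 0.30) were each higher in KO by less than 2-fold. Itgb3 was 147 in KO ALDO, 103 in WT ALDO, 78.7 in KO control and 6.77 in WT control, where the WT control value alone stood apart. Itga5 was dim on each array (17.0 to 58.9). Of the hyaluronan genes around CD44, the synthases Has1, Has2 and Has3 were dim on each array (1.83 to 78.6), and the hyaluronidase Hyal2 differed by -0.01 under ALDO and 0.05 under control treatment. Cd74, the invariant chain that pairs with CD44 as receptor for the cytokine Mif, was past 2-fold under ALDO (1.04) and under control treatment (1.62), and Mif was not (0.06 and 0.15). Of the TIM family genes related to Havcr1, Timd2 was lower in KO by -0.29 under ALDO and -0.18 under control treatment, and Havcr2 and Timd4 were dim on each array. The clusterin receptor Vldlr differed by -0.10 and 0.06, and the clusterin receptor Lrp8 was dim on each array (39.3 to 51.4).

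Genes of the cytokine and stress pathways that act on injured tubules were mostly above 0 in KO against WT, 20 of 22 under ALDO and 17 of 22 under control treatment. Of the 22 measured, 6 were higher by 2-fold or more and none lower in KO ALDO than in WT ALDO (all genes 4.72% and 2.34%), with a median of 0.69. These were Socs3 (2.66), the stress transcription factor Atf3 (1.65), the oncostatin M receptor Osmr (1.16), the NF-kB cofactor Nfkbiz (1.12), the transcription factor Cebpd (1.06) and the cytokine Il1b (1.02), with Atf3 and Il1b below the brighter 50%. In KO control against WT control 2 of 22 were higher, Atf3 (1.46) and Socs3 (1.31), with a median of 0.32, where 4.44% of all genes were higher. Stat3, which Socs3 restrains, was higher in KO by 0.75 under ALDO and 0.69 under control treatment, and its upstream receptor chain Il6st by 0.41 and 0.22. The lowest under ALDO were Il6ra (-0.21) and Il17ra (-0.18). ALDO against control gave 3 of 22 higher in KO (Il6, which was dim, at 1.53, Egr1 at 1.16 and Socs3 at 1.11) and 0 of 22 in WT, with medians of 0.39 in KO and 0.08 in WT, where 3.83% and 3.4% of all genes were higher.

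A wider list of 39 genes known to be switched on in injured tubules, of which 36 were measured, was also mostly higher in KO. In KO ALDO against WT ALDO 15 of 36 were at least 2-fold higher, none was lower and 34 were above 0, with a median of 0.90, beside 4.72% higher, 2.34% lower and a median of 0.04 over all genes. The fibrinogen chain Fgg (2.79) and the chemokine Ccl2 (2.31) were highest, and the lipid droplet gene Plin2 (-0.25) and the progenitor marker Prom1 (-0.22) were lowest. Ccl2 was dim in WT ALDO (17.2), so the size of its difference is uncertain. In KO control against WT control 8 of 36 were higher, 1 was lower and 33 were above 0, with a median of 0.59, beside 4.44% higher, 2.46% lower and a median of 0.02 over all genes. Cldn4 (1.91) and Fgg (1.54) were highest there, and Hmox1, the heme oxygenase (-1.10), and the integrin Itgb6 (-0.76) were lowest. The list shares Sox4 with the list of Sox genes below and Krt8 and Krt18 with the parietal epithelial markers. It too was chosen with earlier results of these data known, so its counts do not test it against these shares. The part of cells other than tubule cells in its differences was not tested.

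Within each genotype the same list had smaller medians. KO ALDO against KO control had 8 of 36 at least 2-fold higher and a median of 0.32, led by the fibrinogen chains Fgb (2.49) and Fga (1.37), where 3.83% of all genes were higher. WT ALDO against WT control had 1 higher, Fgb (1.01), and 1 lower, Hmox1 (-1.22), with a median of 0.20, where 3.4% of all genes were higher and 2.59% lower. Fgb was dim in WT control (61.3), so the size of that difference is uncertain. Hmox1 had 612 in KO ALDO, 262 in WT ALDO, 286 in KO control and 632 in WT control, so that its ALDO difference was positive in KO and negative in WT. Cdkn1a, the cell cycle inhibitor p21 that marks stalled tubule repair, had 885 in KO ALDO, 258 in WT ALDO, 554 in KO control and 203 in WT control, the same order of arrays as the markers.

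**Figure D4:**
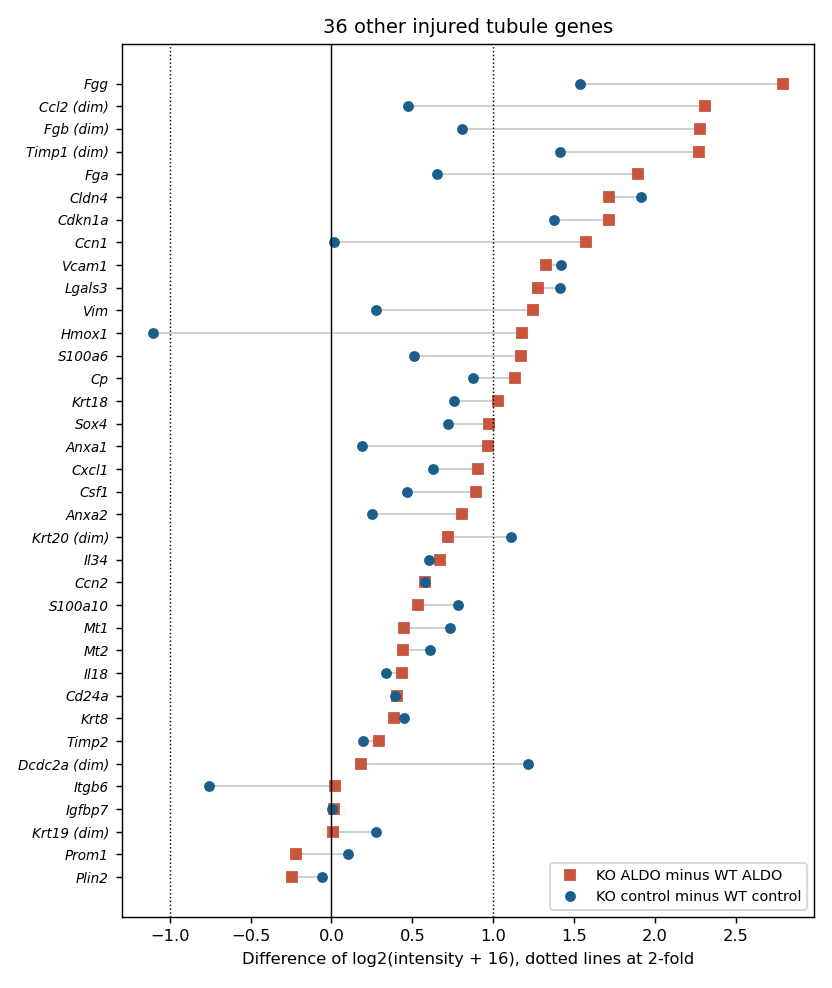
KO minus WT difference of log2(intensity + 16) for the 36 measured genes of the injured tubule list (squares under ALDO, circles under control treatment; dotted lines at 2-fold; dim marks genes outside the brighter 50%). Under ALDO 34 of 36 lie above 0 and 15 reach 2-fold, with Fgg at 2.79, and Hmox1 is the gene whose difference changes sign most widely, 1.18 under ALDO and -1.10 under control treatment.

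Of 11 other Sox genes, 2 were higher by 2-fold or more in KO ALDO than in WT ALDO, Sox10 (1.32, dim on 2 of the 4 arrays) and the endothelial factor Sox18 (1.30), with a median of 0.30, where 4.72% of all genes were higher. Sox4, which is also switched on in injured tubules, had 4245 in KO ALDO, 2154 in WT ALDO, 3491 in KO control and 2115 in WT control, higher in KO by 0.97 and 0.72. It was bright on every array, unlike Sox9. In KO control against WT control Sox11 was past 2-fold upward (1.09) and Sox5 downward (-1.58, with 21.0 in KO control and 94.2 in WT control). Sox11 was dim on every array but KO control. The median was 0.28, where 4.44% of all genes were higher and 2.46% lower.

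Markers of other cell types also differed with genotype. Glomerular endothelial markers were above 0 in 8 of 8 genes in KO against WT under either treatment, with medians of 0.43 and 0.43, and mesangial markers in 5 of 5, with medians of 0.44 under ALDO and 0.35 under control treatment. Podocyte markers had medians of 0.14 under ALDO and -0.12 under control treatment. Thick limb and distal tubule markers, from the segments that release lipocalin 2, had medians of 0.11 under ALDO and 0.01 under control treatment. Of these 9, 4 were below 0 under ALDO and 3 under control treatment. The magnesium channel gene Trpm6 was past 2-fold under both treatments (1.12 and 1.01). Slc12a1 (-0.74 and -0.60), Cldn16 (-0.80 and -0.13) and Egf (-0.48 and -0.31) were lower in KO. Collecting duct markers went both ways, with medians of -0.08 and -0.04. Under ALDO the sodium channel subunit gene Scnn1g was past 2-fold upward (1.06), while the water channel genes Aqp3 (-0.93) and Aqp2 (-0.73) were lowest. Under control treatment 3 of 8 were past 2-fold upward, Scnn1g (1.21), Scnn1b (1.20) and the anion exchanger gene Slc26a4 (1.04), and Aqp3 was at -0.43. Over all genes 4.72% were 2-fold or more higher in KO under ALDO and 4.44% under control treatment. The part of these shifts in the marker differences was not tested.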

How the data were processed

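The authors deposited linear probe set intensities for each array, made with Affymetrix Expression Console per the submitters' processing notes; the sources used here do not give its version, algorithm or detection calls. All 45101 values of each array were above 0, and the equal trimmed means show that the arrays were scaled before deposit, so a shift of all transcripts together could not be seen. Of the probe sets, 34945 had 1 gene symbol in the array's annotation, control probe sets left out, and the one with the highest mean of log2(intensity + 16) over the 4 arrays stood for its gene (18193 genes, 9097 in the brighter 50%). Adding 16 understates the change of dim genes. Groups came from sample titles. With 1 array per group no p-value was computed: a gene was counted at 2-fold or more, and the share of all genes past the same fold is given beside the counts made with these settings. The counting steps were tested on simulated data.

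The members and gene lists were chosen with earlier results of these data known. All probe sets of the 6 members were named, for each member spanning 1 or more on the log2 scale the 5 genes nearest in profile, every measured partner or receptor, and up to 2 highest and 2 lowest of the other lists (all past 2-fold for the upstream genes). Genes named beyond this (Stat3, Il6st, Cdkn1a, Hmox1 values, Sox4, Trpm6, Slc12a1, Cldn16, Egf, Scnn1b, Scnn1g, Slc26a4, Aqp2, Aqp3, S100a8, S100a9, Mpo) were chosen after their values were seen. The C/EBP motif was loosened after a stricter form matched almost no promoter. Alternatives were other pseudocounts (1 and 64), quantile normalization, median centring, other probe sets and other filters on dim genes. Python 3.11.15, numpy 2.4.6 and pandas 2.3.3 were used.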

Additional observations from a re-analysis of the deposited data

Results flagged for a closer look

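Dim probe sets gave effects of opposite sign in the compared groups. In Sox9 probe set 1424950_at the ALDO difference was 1.20 in KO and -0.059 in WT. In Cd44 probe set 1443265_at, the dimmest of its gene, the ALDO difference was -0.044 in KO and 0.35 in WT, and KO against WT was -0.21 under ALDO and 0.18 under control treatment. These differences between groups were not tested, as each group had 1 array.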

How the results depend on the processing

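Quantile normalization and median centring of the arrays changed no count of markers past 2-fold and no direction. With a pseudocount of 1, 4 of 5 markers in place of 3 were higher by 2-fold in KO ALDO against WT ALDO (Sox9 added at 1.21), 2 of 5 in place of 1 were higher by 2-fold in WT ALDO against WT control (Sox9 added at 1.54) and 2 in place of 1 in KO ALDO against KO control (Cd44 added at 1.01), and 1 in place of 0 was lower in the difference of the ALDO effects (Lcn2 at -1.12). With a pseudocount of 64 Havcr1 kept 3.38 under ALDO and 1.85 under control treatment in KO against WT, and Sox9 was under 2-fold (0.60 under control treatment, and 0.94 in KO ALDO against WT control). The second-brightest probe set, which Lcn2 lacks, gave 1 of 4 markers higher by 2-fold in KO control against WT control (Cd44 at 1.57, with Havcr1 at 0.38 and Sox9 at 0.36), 0 of 4 in WT ALDO against WT control, 2 of 4 in KO ALDO against KO control and 2 of 4 in the difference of the ALDO effects. It turned Sox9 to -0.059 in WT ALDO against WT control and to 1.26 in the difference of the ALDO effects, which the mean of all probe sets turned to 0.31, against -0.33 in the brightest probe set. In KO control against WT control that mean gave 3 of 5 markers in place of 4, Lcn2, Havcr1 (1.46) and Clu (1.01), with Cd44 at 0.85 and Sox9 at 0.48. The cause of these changes was not tested. The share of genes 2-fold higher depended on signal: for KO ALDO against WT ALDO it was 4.72% over all genes, 1.26% in the brighter 50%, 0.769% in the brightest 25% and 1.75% among genes reaching the same intensity on at least 1 array, a filter chosen after seeing the data. No paired analysis was possible because each group had 1 array, and none could be left out. Signals under the array median, as in Sox9 and the WT values of Havcr1, limit every ratio that uses them.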
